A study of Mus musculus with 24 samples.

Results

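The circadian clock genes of mouse liver were examined in animals fed high fat diets of different fatty acid composition. The 10 clock genes listed by symbol were Clock, Npas2, Per1, Per2, Per3, Cry1, Dbp, Nr1d1, Nr1d2 and Tef, and a gene was given a value where the array holds a probe set assigned to that gene alone. By this rule 8 of the 10 listed genes were measured, out of 18820 genes measured in all. Dbp shared its only probe set with Sphk2, and Nr1d1 shared its probe sets with Thra, so no value is given for Dbp and Nr1d1. The rule itself uses no measured difference between diets or livers, but the genes were listed with earlier results of these data known. Livers came from male C57Bl/6 mice (C57BL/6J in the sample labels) aged 4 to 6 months, with 8 mice in each of 3 groups and a separate array for each mouse. All 3 diets supplied 45% of energy as fat for 7 weeks. The fat came from partially hydrogenated soy oil in the Trans diet, from canola and palm olein oil in the Cis diet and from cocoa butter in the Saturated diet. No group on a low fat diet was analysed here, so that each difference is between high fat diets, and the labels name no genetic change. The time of day at which these livers were collected, and whether the mice had eaten shortly before, are not given in the sources used here.

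The circadian clock is a feedback loop of transcription that runs in nearly every cell, and in hepatocytes it is set by the central clock of the brain and by the timing of meals. The activators CLOCK or NPAS2 pair with ARNTL (BMAL1) and bind E-boxes, from which they switch on the Per and Cry genes, whose proteins in turn block the activators. The same E-boxes drive Nr1d1 and Nr1d2, nuclear receptors that repress Arntl, Clock, Npas2 and Cry1 through the RORE, and Dbp and Tef, activators that bind D-boxes. In liver the activator genes therefore reach their highest level at another time of day than the Per genes, Nr1d2 and Tef.

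The promoters of the members are shown for those that hold a motif of the clock, since the members moved together or in opposition across the livers. Promoters were taken from RefSeq (mouse build GRCm38.p6) as the 250 bases before and the 50 bases after a transcription start, and 7 of the 8 members were in that table, with 11 promoters. Per2 is named only. Both strands were searched for the E-box CACGTG, for the D-box as TTATGTAA or TTACGTAA, for the cAMP response element TGACGTCA and for the RORE, which is searched by its usual consensus. These motifs do not overlap in the sequences printed. Capitals mark the matches, positions are counted from the start site with the base before it as −1, and each sequence runs 5′ to 3′ on the strand of its gene.
Per3 (minus strand, chr4:151044616-151044915): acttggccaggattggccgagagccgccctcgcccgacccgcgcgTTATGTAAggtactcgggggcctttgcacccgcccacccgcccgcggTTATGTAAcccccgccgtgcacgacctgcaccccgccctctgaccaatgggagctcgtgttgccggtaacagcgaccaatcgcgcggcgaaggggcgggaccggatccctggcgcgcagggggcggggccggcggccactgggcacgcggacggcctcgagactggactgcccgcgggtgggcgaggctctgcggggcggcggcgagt
Cry1 (minus strand, chr10:85185005-85185304): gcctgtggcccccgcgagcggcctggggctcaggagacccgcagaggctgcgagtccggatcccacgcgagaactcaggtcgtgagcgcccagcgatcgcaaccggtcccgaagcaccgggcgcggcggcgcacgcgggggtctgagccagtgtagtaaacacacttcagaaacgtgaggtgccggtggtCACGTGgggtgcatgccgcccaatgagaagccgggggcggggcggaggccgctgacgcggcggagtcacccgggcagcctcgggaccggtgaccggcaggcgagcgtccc
Per1 (plus strand, chr11:69098699-69098998): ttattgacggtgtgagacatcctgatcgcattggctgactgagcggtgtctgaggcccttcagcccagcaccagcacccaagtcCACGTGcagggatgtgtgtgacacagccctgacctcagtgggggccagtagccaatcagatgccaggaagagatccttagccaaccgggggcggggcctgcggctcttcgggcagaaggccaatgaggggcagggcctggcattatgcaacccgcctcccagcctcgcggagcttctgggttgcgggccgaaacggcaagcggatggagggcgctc
Tef (plus strand, chr15:81811164-81811463): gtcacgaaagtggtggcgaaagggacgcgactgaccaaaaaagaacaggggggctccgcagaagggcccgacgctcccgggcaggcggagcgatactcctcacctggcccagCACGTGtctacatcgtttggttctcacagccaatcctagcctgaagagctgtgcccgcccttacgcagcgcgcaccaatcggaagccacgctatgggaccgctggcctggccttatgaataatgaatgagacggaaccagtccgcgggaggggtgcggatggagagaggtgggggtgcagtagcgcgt
The Per3 promoter held 2 D-boxes, at −205 and −158, and no E-box. Cry1 held an E-box at −60, and Per1 an E-box at −166 of the promoter shown but none at its other start. Tef held an E-box at both of its starts, at −138 in the promoter shown and at −127 in the other (chr15:81802423-81802722). In all, 4 of the 11 promoters held an E-box and 1 of 11 a D-box, whereas an E-box was found in 7.15% and a D-box in 1.06% of all 32851 promoters in the table. Counted by gene this was 3 of 7 and 1 of 7 members, against 8.09% and 1.23% of all genes in the table. The cAMP response element and the RORE were in 0 of 11 promoters, against 1.79% and 0.384% of all promoters. Clock (3 starts), Npas2 and Nr1d2 had no match to these letters in this window.

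The values are signals of the robust multi-array average (RMA) on the log2 scale, so that a difference of 1 is a doubling. The 24 arrays were alike, with medians between 2.94 and 3.06 and a median correlation with the other arrays between 0.975 and 0.986. Hepatocyte markers were at high level in every liver, with a mean over 9 of 10 listed markers of 11.62 to 11.83. In whole liver, fewer cells of a type and less RNA per cell cannot be told apart. Levels of different genes rest on different probes and are not compared with each other.

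Of the activator genes, Npas2 differed widely between livers on the same diet and Clock much less. Npas2, the partner of ARNTL that can stand in for CLOCK, had log2 signals from 2.58 (lowest) to 6.70 (highest) with a median of 3.49 in the 8 Saturated livers. The Cis livers ran from 2.13 to 5.35 with a median of 3.25, and the Trans livers from 2.29 to 6.93 with a median of 3.54. The 3 groups overlapped over nearly their whole range, and 2 Saturated and 2 Trans livers, at 6.12 to 6.93, lay above all other livers. Clock, the histone acetyltransferase that pairs with ARNTL, varied least of the 8 genes. It ran from 7.27 to 8.40 (median 8.00) in Saturated, from 6.90 to 8.27 (median 7.80) in Cis and from 7.24 to 8.47 (median 7.69) in Trans livers. The same 4 livers that were highest in Npas2 were also highest in Clock, although the margin was small, at 8.27 against 8.27 for the next liver, Cis replicate 8.

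**Figure D1:**
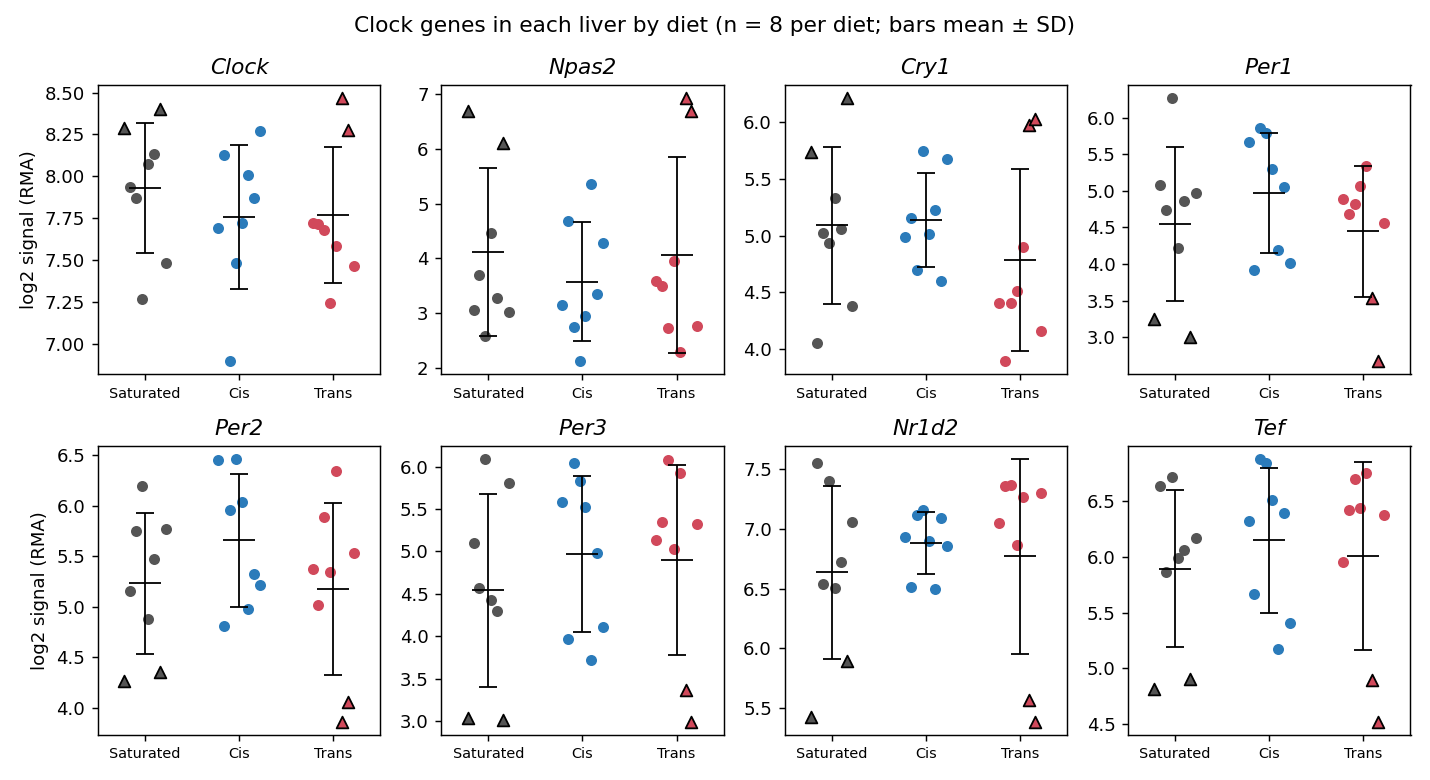
Log2 signal of the 8 clock genes in each of the 24 livers (points), by diet, with the mean and SD of the 8 livers of a diet (bars). Triangles mark the 4 livers lowest in Per3, namely Saturated 1 and 7 and Trans 6 and 7, which lie at the top of the Npas2 and Clock panels and at the bottom of the Per1, Per2, Per3, Nr1d2 and Tef panels, while the 3 diets overlap in every panel. The vertical axes do not start at 0.

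The Period genes encode the repressors that close the loop, and each of them varied widely within every diet. Per1, which also responds quickly to hormones and feeding, ran from 3.00 to 6.27 (median 4.80) in Saturated, from 3.92 to 5.86 (median 5.17) in Cis and from 2.68 to 5.34 (median 4.75) in Trans livers. Per2, a core repressor, ran from 4.26 to 6.20 (median 5.31), from 4.81 to 6.47 (median 5.64) and from 3.86 to 6.34 (median 5.36) in the same order. Per3, a Period gene not required for the rhythm itself and with a large amplitude in liver, ran from 3.01 to 6.09 (median 4.50), from 3.72 to 6.04 (median 5.25) and from 2.99 to 6.08 (median 5.23). In each of the 3 genes the highest liver of every diet was above the median of every other diet, and the low end was made up by the same 4 livers of the Saturated and Trans groups.

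Cry1, the cryptochrome that represses late in the cycle, ran from 4.05 to 6.21 (median 5.04) in Saturated, from 4.60 to 5.74 (median 5.08) in Cis and from 3.90 to 6.02 (median 4.46) in Trans livers. Its highest values were in Saturated 7, Trans 7 and Trans 6, that is in livers that were lowest in the Period genes.

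Nr1d2 (REV-ERBβ), the nuclear receptor that represses the activator genes, spread least in the Cis livers. It ran from 6.50 to 7.16 (median 6.92) there, against 5.42 to 7.55 (median 6.63) in Saturated and 5.39 to 7.36 (median 7.16) in Trans livers. A further probe set assigned to Nr1d2 alone had a mean log2 signal of 1.46 over the 24 livers, against 6.76 for the probe set used. Tef, a PAR bZIP activator of D-box genes, ran from 4.82 to 6.72 (median 6.03) in Saturated, from 5.17 to 6.88 (median 6.36) in Cis and from 4.52 to 6.76 (median 6.40) in Trans livers. The groups overlapped in both genes.

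Within diets the clock genes were among the most variable genes of the liver. The SD within diets, pooled over the 3 groups, was 1.497 on the log2 scale for Npas2, 1.06 for Per3, 0.92 for Per1, 0.74 for Per2 and Tef, 0.65 for Cry1 and Nr1d2 and 0.41 for Clock. The median of that SD was 0.17 over the 8349 genes with a mean signal over 20, a level that all 8 members passed. Of these genes 95.7% had a smaller SD than Clock, 98.9% a smaller SD than Nr1d2 and 99.95% a smaller SD than Npas2. The mean signal of Npas2, 27.0, rested on 4 livers at log2 6.12 to 6.93, with a median of 3.22 in the other 20. In the Cis livers, which hold none of these 4, its mean signal was 15.5, below that level. Over all 18820 genes 99.98% had a smaller SD than Npas2. Between the lowest and the highest of the 24 livers the signal differed 28.0-fold in Npas2, 12.0-fold in Per1, 8.56-fold in Per3, 6.08-fold in Per2, 5.14-fold in Tef, 4.96-fold in Cry1, 4.50-fold in Nr1d2 and 2.97-fold in Clock. The low ends of Npas2 (log2 2.13), Per1 (2.68) and Per3 (2.99) lay below or among the array medians of 2.94 to 3.06. The size of these folds therefore rests on weak signals. The gap between the highest and the lowest diet mean was small beside the spread within diets. Its median over the members was 0.413 of the SD within diets, against 0.635 over all genes. Only Per2 lay above the latter.

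**Figure D2:**
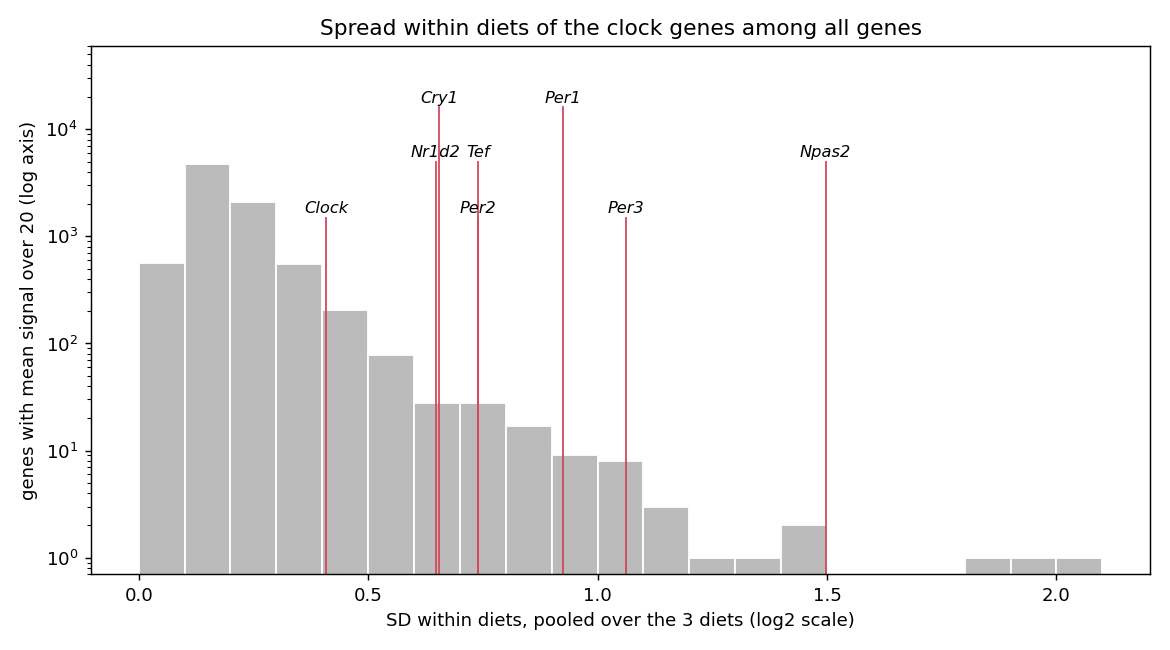
Number of genes (vertical, log axis) by their SD within diets on the log2 scale (horizontal), for the 8349 genes with a mean signal over 20, with the 8 clock genes as red lines. The median gene lies at 0.17, and the clock genes lie between 0.41 (Clock) and 1.497 (Npas2).

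The diets were compared to ask whether the kind of fat changed the level of the clock genes. No member was called in any comparison with limma at an adjusted p under 0.05 (two-sided, Benjamini-Hochberg over 35556 probe sets). In Trans against Saturated livers 0 of 8 members were called, against 0.00844% of all probe sets, and the members' log2 differences ran from −0.31 for Cry1 to 0.36 for Per3. In Trans against Cis livers 0 of 8 were called, against 0.00281% of all probe sets, and the differences ran from −0.53 for Per1 to 0.48 for Npas2. In Cis against Saturated livers 0 of 8 were called, against 0% of all probe sets, and the differences ran from −0.54 for Npas2 to 0.43 for Per3. For the last comparison 2337 probe sets had an unadjusted p under 0.05, and Tukey's post hoc test called 0. Over the 24 comparisons of a member, 0 had an unadjusted p under 0.05, against 7.32%, 6.16% and 6.57% of all probe sets in the 3 comparisons, and the smallest p was 0.184 for Per2 in Trans against Cis livers (log2 difference −0.48, 95% interval −1.20 to 0.24, adjusted p = 0.865 by limma). In that comparison 6 of 8 Trans livers lay below the Cis mean. Any 2 of the 3 comparisons share the livers of a diet, so their differences are not independent.

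The means of the diets stood in a partly shared order. Cis livers had the highest mean in Per1, Per2, Per3, Cry1, Nr1d2 and Tef, and the lowest in Clock and Npas2, where Saturated livers were highest. The lowest mean was that of Trans livers in Per1, Per2 and Cry1 and of Saturated livers in Per3, Nr1d2 and Tef. No neighbouring pair of diets differed beyond the spread between livers. The members were correlated across livers, so their diet means are not independent. The 95% interval of a difference, which is not adjusted for the number of probe sets, reached 0.40 on the log2 scale to either side for Clock, the narrowest, and 1.46 for Npas2, the widest. For Npas2 the interval of Cis against Saturated ran from −1.99 to 0.92, so that the 8 livers per diet leave room for differences up to these bounds.

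**Figure D3:**
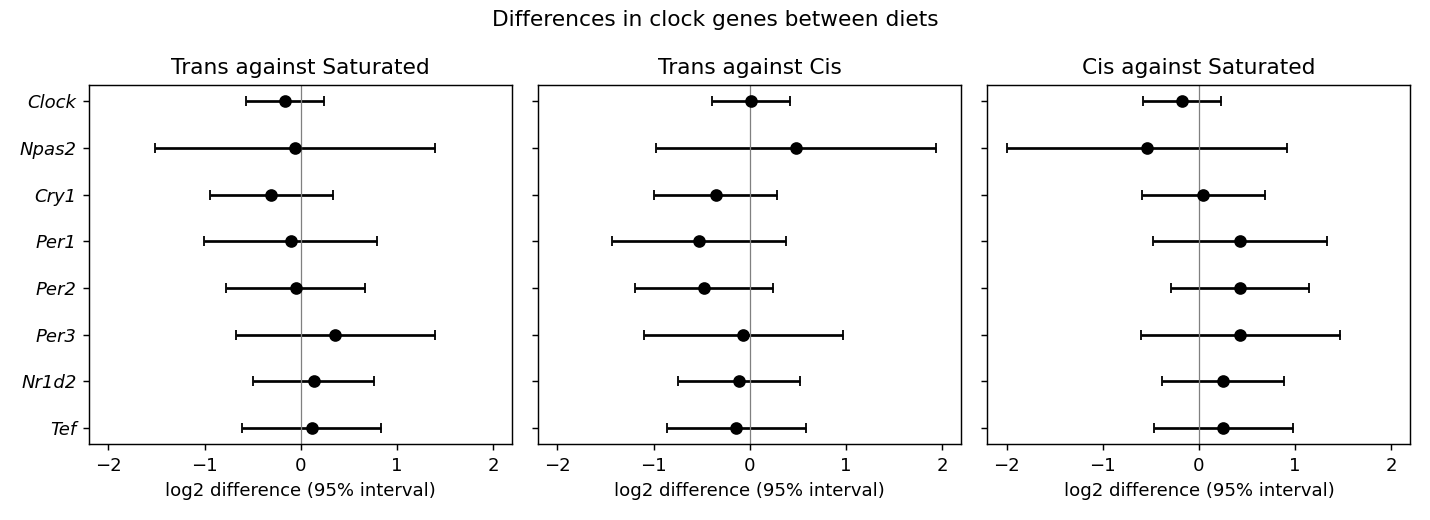
Difference in mean log2 signal (points) with its 95% interval (bars) for the 8 clock genes in the 3 comparisons of diets, 8 livers per diet. Every interval includes 0, and the intervals are narrowest for Clock and widest for Npas2.

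The spread itself was then compared between diets, as the distance of each liver from the median of its diet. The mean distance of Nr1d2 was 0.19 in Cis, 0.55 in Saturated and 0.55 in Trans livers on the log2 scale, the largest contrast relative to its error. It was not called by limma, with an adjusted p of 0.998 in Cis against Saturated livers. No member was called in the comparisons of spread, against 0%, 0.00281% and 0% of all probe sets called in Trans against Saturated, Trans against Cis and Cis against Saturated livers. At an unadjusted p under 0.05 stood 0 members, against 3.34%, 3.85% and 4.03% of all probe sets. With deviations from the diet mean, 1 member, Nr1d2, passed that unadjusted level in Trans against Cis livers (limma, adjusted p = 0.564). Without the 4 livers lowest in Per3, Nr1d2 passed it in Trans against Saturated livers and Per1 and Per3 in Trans against Cis livers. The spread was smaller in Trans in all 3 cases, and 0 were called. These 4 were 2 Trans, 2 Saturated and 0 Cis livers. Their removal takes the lowest Per3 and Per1 values from Trans but none from Cis livers. The smaller spread in Trans than in Cis therefore follows in part from how the livers were picked. In Npas2 the mean distance was 1.24 in Trans, 1.13 in Saturated and 0.84 in Cis livers, and in Per3 it was 0.76, 0.85 and 0.77.

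When the livers were ordered by Per3, the other clock genes followed in opposite directions. The 4 livers lowest in Per3 were Trans 7 (2.99), Saturated 7 (3.01), Saturated 1 (3.04) and Trans 6 (3.37), and none was a Cis liver. The same 4 livers had the 4 lowest values of Per1, Per2, Nr1d2 and Tef, and the 4 highest values of Npas2 and Clock. Per1 was at 2.68 to 3.54 in these 4 and at 3.92 to 6.27 in the other 20, and Nr1d2 at 5.39 to 5.90 against 6.50 to 7.55. Npas2 was at 6.12 to 6.93 in the 4 and at 2.13 to 5.35 in the other 20. In Cry1, 3 of the 4 were among the 4 highest, with Saturated 1 (5.73) just below Cis 4 (5.74). At the other end of the order, Saturated 4 (6.09), Trans 3 (6.08) and Cis 3 (6.04) had the most Per3, so that every diet had a liver there. The 4 livers were picked by their Per3 values and form no group of the study, and these ranges are a description.

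**Figure D4:**
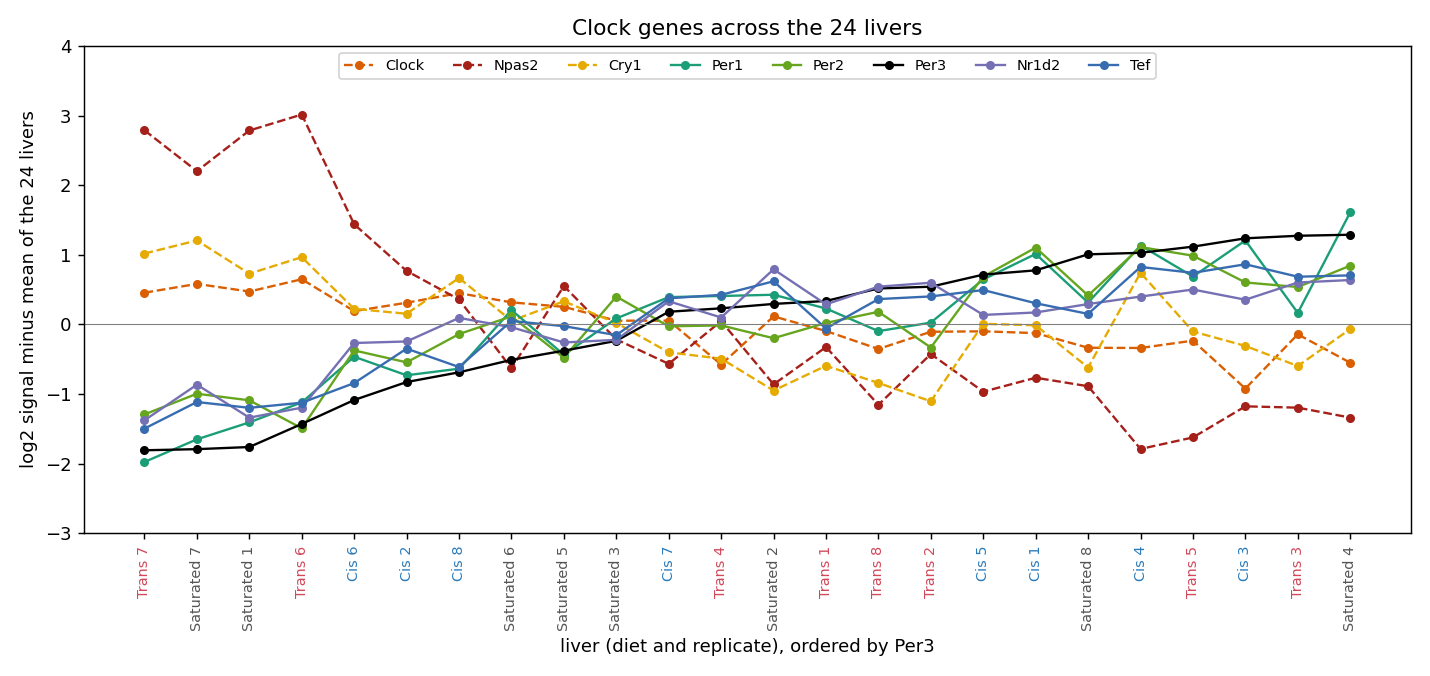
Log2 signal of the 8 clock genes minus its mean over the 24 livers (vertical), with the livers ordered from left to right by Per3 (horizontal, diet and replicate number). Dashed lines are Clock and Npas2, which start high and end low, and Cry1, which starts high and ends near its mean. Cry1 was at 4.94 in Saturated 4, against a mean of 5.00. Solid lines are Per1, Per2, Per3, Nr1d2 and Tef, which start low and end high. Npas2 falls from a log2 signal of 6.70 in Trans 7, at the left end, to 2.58 in Saturated 4, at the right end.

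To measure this, each probe set was fitted on the Per3 value of the same liver with the diet as a further term, so that differences between diets take no part. All 7 other members were called (limma, adjusted p under 0.05 over 35555 probe sets), against 1.07% of all probe sets. Per1, Per2, Nr1d2 and Tef moved with Per3, as 0.444% of all probe sets did, and Clock, Npas2 and Cry1 moved against it, as 0.627% did. Values of 2 genes of a liver come from the same array and mouse, and no cause of the shared movement was tested.

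Among the genes that moved with Per3, Tef had a slope of 0.66 log2 units per log2 unit of Per3 (standard error 0.05, adjusted p = 1.35e-08 by limma). Its Pearson r over the 24 livers after removal of the diet means was 0.95, and Spearman's rho was 0.89. Per1 had a slope of 0.82 (r = 0.94, rho = 0.89), Per2 of 0.63 (r = 0.91, rho = 0.89) and Nr1d2 of 0.54 (r = 0.89, rho = 0.85). Npas2 moved most strongly in the other direction, with a slope of −1.33 (standard error 0.10, adjusted p = 1.37e-08 by limma, r = −0.95, rho = −0.91). Clock had a shallow slope of −0.33 (r = −0.86, rho = −0.87), and Cry1 one of −0.44 with the loosest relation (r = −0.71, rho = −0.65, adjusted p = 0.0130 by limma). In permutations of the livers both coefficients of each gene other than Cry1 had p = 1e-05, the smallest that 100000 permutations can give, and those of Cry1 had p = 8e-05 and 0.00079. With Per3 in the fit the SD left within diets fell from 1.497 to 0.501 in Npas2, from 0.74 to 0.24 in Tef and from 0.65 to 0.47 in Cry1.

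**Figure D5:**
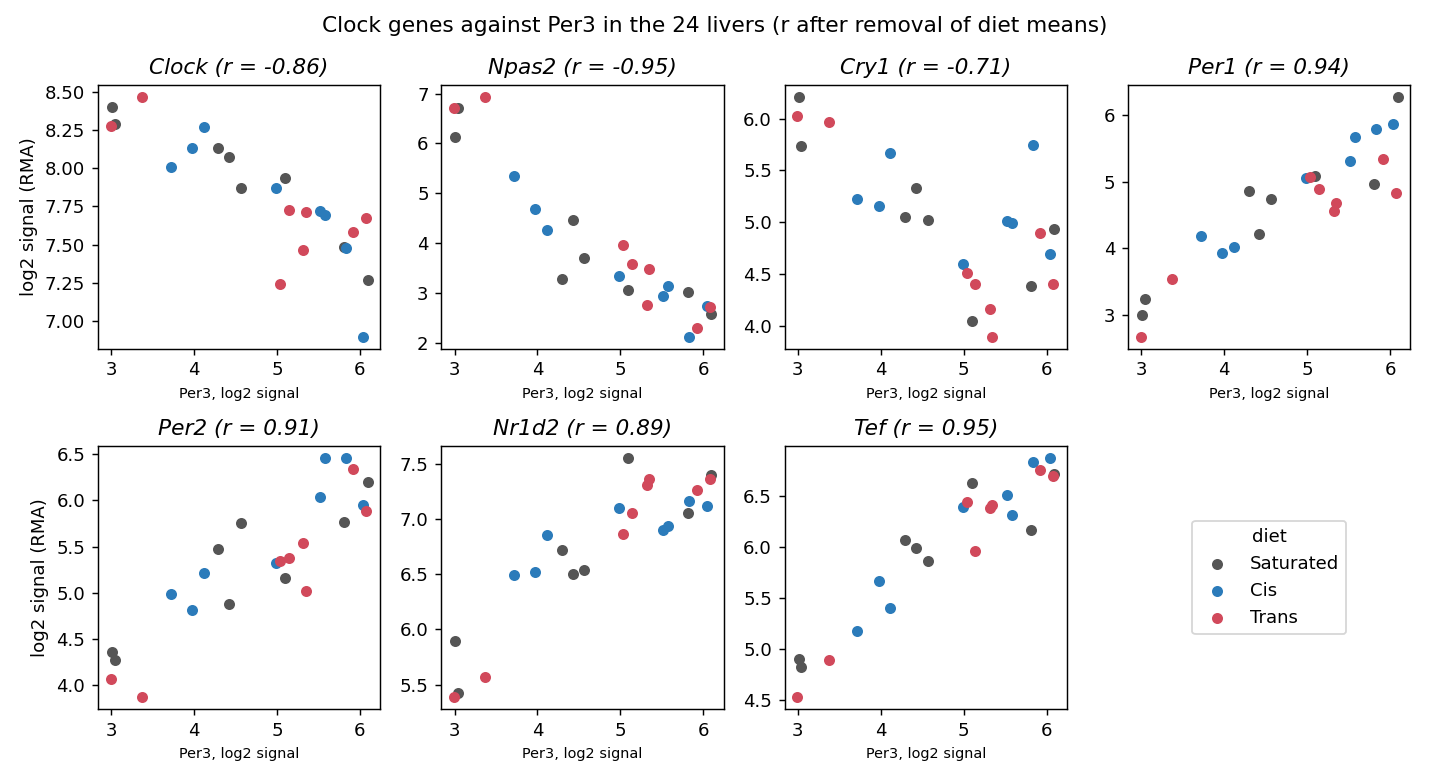
Log2 signal of 7 clock genes (vertical) against that of Per3 (horizontal) in the 24 livers, coloured by diet, with Pearson r after removal of the diet means in each title. Clock, Npas2 and Cry1 decline along Per3 and the other 4 genes rise, and the 4 livers at the left end of each panel lie apart from most others in Npas2 and Nr1d2.

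The r and the calls of the relation depended in part on the 4 livers lowest in Per3, although leaving them out also narrows the range of Per3. Without the 2 livers farthest from the median of Per3 (Trans 7 and Saturated 7), r was −0.58 for Cry1, −0.83 for Clock and 0.93 for Tef. Without all 4, over 20 livers, r was −0.88 for Npas2, 0.87 for Tef, 0.86 for Per1 and 0.81 for Per2, and these 4 genes were still called. In the same 20 livers Clock (r = −0.77, adjusted p = 0.0550 by limma), Nr1d2 (r = 0.73, adjusted p = 0.111) and Cry1 (r = −0.24, adjusted p = 0.899) were not called. The slope of Clock there was −0.36, against −0.33 over 24 livers. That of Nr1d2 was 0.30 against 0.54, and that of Cry1 −0.13 against −0.44. The call of Cry1 was also lost when only Trans 6 (adjusted p = 0.0567 by limma) or only Trans 7 (adjusted p = 0.0731) was left out.

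Within single diets the signs were the same in all 7 genes. In the 8 Saturated livers r was 0.89 to 0.93 for the 4 genes that moved with Per3, in the Cis livers it was 0.85 to 0.97 and in the Trans livers 0.92 to 0.98. Npas2 had r = −0.92 in Saturated, −0.96 in Cis and −0.98 in Trans livers, and Clock −0.95, −0.85 and −0.80. Cry1 had r = −0.81 in Saturated and −0.84 in Trans livers but −0.27 in Cis livers. In the 6 Trans livers other than 6 and 7, r was −0.83 for Npas2, 0.79 for Per2, 0.78 for Tef and 0.67 for Nr1d2. In the same 6 livers it was 0.28 for Per1, 0.41 for Clock and 0.38 for Cry1, so that the negative sign of Clock and Cry1 within the Trans diet rested on 2 livers.

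The same 2 sets of genes appeared in all pairs of members. Of the 28 pairs, 3 of 3 within Clock, Npas2 and Cry1 had a positive r after removal of the diet means (0.63 to 0.77), and 10 of 10 within Per1, Per2, Per3, Nr1d2 and Tef (0.79 to 0.95). All 15 pairs between the sets had a negative r, from −0.95 to −0.53. The pairs share the same 24 livers and arrays.

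Of 14 further genes of the clock mechanism, 12 were measured. In their relation to Per3 6 were called, against 1.07% of all probe sets. Arntl (BMAL1), the obligate partner of CLOCK and NPAS2, moved against Per3 with a slope of −0.99 (standard error 0.06, r = −0.96, adjusted p = 1.96e-09 by limma). Nfil3, a repressor that competes with TEF for D-boxes, moved against it too (r = −0.86). Ciart (r = 0.88), Bhlhe40 (0.81), Cry2 (0.80) and Bhlhe41 (0.78), which are repressors of the activators, moved with Per3. The mean signal of Bhlhe41 was 12.0, below the level of 20 that the members passed. Hlf, a D-box activator related to Tef, had a slope of 0.12 and was not called (adjusted p = 0.0968 by limma). Rora, which activates through the RORE, Timeless, and the kinase Csnk1d, which acts on the PER proteins, had r of −0.34, −0.25 and −0.18 and were not called. Over the 20 livers other than the 4 lowest in Per3, r of the 6 called genes ran from −0.92 for Arntl and −0.68 for Nfil3 to 0.57 for Bhlhe41 and 0.90 for Ciart. In the 6 Trans livers among them r was 0.37 for Nfil3 and 0.03 for Bhlhe40. Between diets 0 of the 12 were called, against at most 0.00844% of all probe sets. Hlf had a log2 difference of 0.30 in Cis against Saturated livers, with an adjusted p of 0.630 by limma.

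Genes that the clock is known to drive in liver moved along the same order. Of 14 listed, 12 were measured. Called with Per3 were 7, beside 0.444% of all probe sets, and called against it 2, beside 0.627%. Usp2, a deubiquitinase, had r = 0.89 and ran from 3.51 to 6.95 over the 24 livers. Wee1, the kinase that holds back entry into mitosis, had r = 0.92, Upp2, a uridine phosphorylase, 0.93 and Coq10b, a coenzyme Q binding protein, 0.90. Alas1, the rate-limiting enzyme of heme synthesis in liver, had r = 0.86 and differed 8.92-fold between its lowest and highest liver. Gys2, the glycogen synthase of liver, had r = 0.83, and Rgs16, a regulator of G protein signalling, r = 0.71 with a 37.0-fold range. Elovl3, an elongase of very long chain fatty acids, and Avpr1a, a vasopressin receptor, moved against Per3 (r = −0.80 and −0.78). Cyp7a1, the rate-limiting enzyme of bile acid synthesis, Nampt, which forms the NAD precursor nicotinamide mononucleotide, and Lonrf3 were not called (adjusted p = 0.181, 0.155 and 0.0784 by limma). Over the 20 livers other than the 4 lowest in Per3 the 9 called genes kept their sign, with r from 0.51 for Rgs16 to 0.92 for Usp2 among those with Per3. In the 6 Trans livers among them r was −0.19 for Rgs16 and 0.57 for Elovl3, of the opposite sign. Between diets 0 of the 12 were called, against at most 0.00844% of all probe sets. Avpr1a came nearest, in Trans against Saturated livers (log2 difference −0.77, adjusted p = 0.545 by limma).

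The genes most like Per3 were taken from the whole array, by r after removal of the diet means over 24 livers among 8348 genes with a mean signal over 20. The 8 most alike were Tef, Mtss1 (r = 0.94), Per1, Upp2, Wee1, Slc38a3 (0.92), Per2 and Coq10b, that is 3 members, 3 genes of the list of clock outputs and 2 others. Mtss1 encodes a scaffold between membrane and actin, and Slc38a3 a glutamine transporter. The 8 most opposite were Arntl, Clpx (r = −0.95), Npas2, Tjp3 (−0.93), Cldn1 (−0.93), Trmt9b (−0.92), Chka (−0.91) and Nedd4l (−0.91). Clpx encodes a subunit of a mitochondrial protease, Tjp3 and Cldn1 proteins of tight junctions, Chka a choline kinase and Nedd4l a ubiquitin ligase. The median size of r with Per3 was 0.212 over the ranked genes and 0.912 over the other 7 members.

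Genes known to answer to feeding, hormones or temperature, and markers of cell types, are set beside the clock genes here. Of 11 measured genes of feeding and fasting, 3 were called in their relation to Per3, against 1.07% of all probe sets. Pdk4, a kinase that shuts off pyruvate oxidation on fasting, moved against Per3 (slope −0.91, r = −0.84, adjusted p = 0.000139 by limma), Srebf1, the lipogenic transcription factor, moved with it (0.35, r = 0.83, adjusted p = 0.000321), and so did Pck1, a gluconeogenic enzyme (0.28, r = 0.66, adjusted p = 0.0420). Over the 20 livers other than the 4 lowest in Per3, r was −0.68 for Pdk4 and 0.78 for Srebf1 but 0.25 for Pck1. The other 8 were not called, among them Igfbp1 (r = −0.51), Fgf21 (−0.48) and Tat (0.49). Of 13 measured glucocorticoid, temperature and immediate-early genes, 0 were called in their relation to Per3, against 1.07% of all probe sets. Between diets 0 of them were called. Egr1, an immediate-early transcription factor, had r = −0.51 (adjusted p = 0.310 by limma), and Sgk1, a kinase induced by glucocorticoids, r = −0.43 (adjusted p = 0.494). Between diets 0 feeding and fasting genes were called, against at most 0.00844% of all probe sets. The smallest p was that of Ppargc1a, a coactivator induced by fasting (log2 difference −0.51 in Cis against Saturated livers, adjusted p = 0.502 by limma). Markers of hepatocytes, smooth muscle, endothelium, Kupffer cells, exocrine pancreas, striated muscle and adipocytes came to 47 measured genes. Of these, 0 were called in their relation to Per3 (limma, smallest adjusted p 0.290), against 1.07% of all probe sets. Between diets 0 were called, against at most 0.00844% of all probe sets. At shares this low, counts of 0 here and in the list of 13 do not set these genes apart from all probe sets. A mean signal over 20 was reached by 2 of 7 smooth muscle and 1 of 5 adipocyte markers. It was reached by 0 of 4 exocrine pancreas and 0 of 6 striated muscle markers, and by all measured markers of the other types. The part of sampling time and of feeding state in these differences between livers was not tested.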

How the data were processed

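Liver RNA of 24 mice, 8 per diet, was measured on Affymetrix Mouse Gene 1.1 ST arrays. Scans were turned into expression values by the authors with RMA in Bioconductor (background correction, quantile normalization, summary over probes), and the deposited table holds log2 values of 35556 probe sets, checked to run from 0.309 to 13.46. Versions are not given in the sources used here. Genes were taken from probe sets with a single gene in a probe annotation table (21218 of 35556, with 18820 genes), by the probe set of highest mean. Of the columns, 0 were left out. The number of arrays limits the precision, and the replicates are separate mice.

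Diets were compared in R 4.3.3 with limma 3.58.1 (1 fit over 24 livers, eBayes without trend, 21 residual degrees of freedom, Benjamini-Hochberg over all probe sets, called under 0.05). The spread was tested by the same fit on absolute deviations from the diet median, and the relation to Per3 by a fit with diet and Per3 as terms. Analysis of variance with Tukey's post hoc test, which the methods name in general but not for the arrays, was an alternative. Correlations were computed on values minus diet means with 100000 permutations of the livers, and the script was tested on simulated data. The relation was planned on Dbp, with Nr1d1 as alternative. Neither has a single-gene probe set, so Per3 took the place of Dbp, and Nr1d2 that of Nr1d1. Alternatives were leaving out each liver, the replicate number as a block, weights for arrays, a repeated quantile normalization, centring of arrays on their median, genes with a mean signal over 20, robust eBayes with a trend, the mean of the probe sets of a gene, deviations from the diet mean, a fit of 2 groups at a time and a fold over 1.5. Leaving out the 4 livers lowest in Per3, Per3 as covariate and Nr1d2 as reference were chosen after seeing the data. Named are all members, from each other list the called genes and up to 4 others with the smallest p in the relation or between diets, and the 8 genes most like and most opposite to Per3. The members and lists were chosen with earlier results of these data known. Replicate numbers are not said to pair livers, and over all probe sets 0 of 24 pairs with the same number had deviations correlated over 0.1 (median r 0.02). Whether livers of the same number share a factor that acts on few genes was not tested.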

Additional observations from a re-analysis of the deposited data

How the results depend on the processing

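The count of members called between diets was 0 of 8 in all 3 comparisons under every alternative run, and the count called for spread was 0 throughout. Since no difference between diets was called, its sign was free to change. Without the 4 livers lowest in Per3 the log2 difference of Per2 in Trans against Saturated livers was 0.047. In Trans against Cis livers those of Clock, Npas2, Per3, Nr1d2 and Tef became −0.19, −0.44, 0.50, 0.32 and 0.29. In Cis against Saturated livers those of Npas2, Per1, Per3, Nr1d2 and Tef became 0.23, −0.048, −0.077, −0.078 and −0.092. The livers left out were 2 Trans, 2 Saturated and 0 Cis, picked by low Per3, so the shifts against Cis livers follow in part from that choice. With Per3 as covariate Npas2, Nr1d2 and Tef stood at 0.42, −0.061 and −0.12 in Trans against Saturated, Clock at −0.013 in Trans against Cis, and Npas2 and Tef at 0.032 and −0.030 in Cis against Saturated livers. Array weights gave 0.015 for Per2 in Trans against Saturated livers, and quantile normalization again gave −0.0024 for Clock in Trans against Cis livers.

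Leaving out single livers in Trans against Saturated gave −0.47 to 0.31 for Npas2, −0.32 to 0.15 for Per1, −0.22 to 0.14 for Per2, −0.040 to 0.33 for Nr1d2 and −0.041 to 0.33 for Tef. In Trans against Cis it gave −0.11 to 0.085 for Clock, −0.25 to 0.20 for Per3, −0.20 to 0.083 for Nr1d2 and −0.28 to 0.072 for Tef, and in Cis against Saturated −0.10 to 0.21 for Cry1. The other differences kept their sign in these fits.

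The number of other members called in relation to Per3 was 7 of 7 under all alternatives but the following. It was 4 without the 4 livers lowest in Per3, 6 to 7 when single livers were left out, and 5 with the replicate block, where Clock (adjusted p = 0.103 by limma) and Cry1 (adjusted p = 0.0607) were not called. The replicate block called 0 members between diets. Replicate numbers are not said to pair livers, and over all probe sets 4 of 24 livers were best correlated with a liver of their own number. How many would be so without any pairing was not tested. Between livers of different diets the median r of the deviations was 0.02 for the same number and −0.003 for other numbers. Over all probe sets the relation was called for 381, for 533 of those with a mean signal over 20, for 89 with the replicate block and for 57 without the 4 livers, and the cause was not tested. In Trans against Saturated livers 3 probe sets were called in all, 16 without Saturated replicate 2 and 0 with Tukey's post hoc test. The number of arrays limits the size of difference that could be called.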

Other observations

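With the Per3 value of each liver as a covariate, 1 member, Per1, passed an unadjusted p under 0.05 in Trans against Saturated livers and 2 members, Per1 and Per2, in Trans against Cis livers, but 0 were called by limma in any comparison (smallest adjusted p 0.583 and 0.652). Without the 4 livers lowest in Per3, Cry1 was the single member at an unadjusted p under 0.05 in Trans against Cis livers, and it was not called (adjusted p = 0.617 by limma). That choice removes Trans 6 (5.97) and Trans 7 (6.02), the Trans livers highest in Cry1, and no Cis liver. Leaving them out lowers the Trans mean of Cry1, so this p cannot separate diet from how the livers were picked. Over all 24 livers the log2 difference of Cry1 in Trans against Cis livers was −0.35 and was not called. With Nr1d2 in place of Per3 as the reference, 7 of 7 other members were called, and 293 probe sets in all.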
